A study of Mus musculus with 8 samples.

Results

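The response to bile duct ligation (BDL) that Gli1+ peribiliary mesenchymal cells and stellate cells of the mouse liver have in common was described from 8 of the 8 RNA-seq libraries of the study. The 4 libraries made 5 d after BDL were set against the 4 from uninjured liver in 1 additive model with cell population as a covariate, and genes were read as shared where they moved the same way in both populations. The groups were uninjured Gli1+ cells, Gli1+ cells after BDL, uninjured stellate cells and stellate cells after BDL, with 2 libraries each. All mice were 8 weeks old and carried Gli1:CreER+/-; Ai9+/- on a background that mixed C57BL/6 with SWR/J. The controls thus shared the Cre and reporter alleles of the ligated mice, while the mixed background may differ between animals. The Cre recombinase was made from the Gli1 gene, which limits the reporter to cells that used that gene, and how either population was gated in the sort is not known here. Livers were digested, cells were sorted directly into RNA buffer, and full-length cDNA was amplified by SMART-Seq2. Whether the 2 libraries of a group were made from different animals is not stated in the labels. The p-values therefore measure only how far these libraries spread, and that spread may be technical.

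Ligation of the bile duct blocks bile flow, raises pressure in the ducts and starts a ductular reaction with scarring around the portal tracts. Stellate cells lie along the sinusoids and store vitamin A, whereas Gli1+ cells lie around ducts and vessels and use the Hedgehog pathway, in which the transcription factor Gli1 is both an effector and a target. Both are known sources of myofibroblasts, the contractile cells that make collagen, fibronectin, tenascin and protease inhibitors in a fibrotic liver. Hepatocytes answer injury with acute phase proteins, which they make in very large amounts.

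Values are CPM, that is, reads scaled to the library total, and 3 reads were worth 0.156 to 0.266 CPM depending on the library. Differences are log2 differences of CPM + 1, BDL minus uninjured, each with its model standard error (SE), and p-values are from limma, adjusted by Benjamini-Hochberg over the whole table and called below 0.05. Totals ranged from 11261775 to 19180370 reads, and 15963 to 22897 genes had a read. The labels were checked with Lrat, a retinol esterase of stellate cells, at 1832 to 2784 CPM in the 4 stellate libraries and 5.16 to 35.9 CPM in the Gli1+ libraries. Gli1 was read at 2.39 to 14.9 CPM in the Gli1+ libraries and was at 0 in 3 of the 4 stellate libraries. Markers of bile duct and mesothelial cells were abundant in the Gli1+ sort, and the uninjured stellate libraries differed in macrophage markers, whose sum was 14987 CPM in replicate 1 and 95.5 CPM in replicate 2. The median difference of all genes was 0.19 in CPM, 0.13 after TMM scaling and 0.09 after DESeq2 size factor scaling, and differences are to be read against these medians. In bulk libraries fewer cells of a type and less RNA per cell cannot be told apart.

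In the additive contrast 138 of 16446 genes passed the threshold, or 0.839% of those tested. Of these, 113 were higher (0.687%) and 25 were lower (0.152%) after BDL. All 138 had the same direction in both populations, and in each of them both BDL libraries lay beyond both uninjured libraries within each population. Over all genes tested, 1544 (9.39%) were higher without overlap in both populations and 551 (3.35%) were lower. An unadjusted p under 0.05 was reached by 2366 of the 16446. Counts in gene lists below are to be read against these shares, and a lack of overlap is not a test. None of the 138 differed between the populations by the interaction test of limma, where the lowest adjusted p among them was 0.292. The additive fit counts such a difference as residual spread, so genes that differ strongly seldom pass it and the test had little left to find. Over all genes tested, 2 differed by it. Responses of called genes could still be unequal, as in Timp1, at 2.24 in Gli1+ and 6.86 in stellate cells.

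How many genes passed depended on single libraries and on the test. Without stellate BDL replicate 2 the count was 0 by limma, with 1657 genes at an unadjusted p under 0.05, so each call of the additive contrast is lost without that library. Without Gli1+ BDL replicate 2 only Hpx passed, and without stellate BDL replicate 1 only Hpx and Tnc passed. The count was 46 without Gli1+ BDL replicate 1, 67 without uninjured Gli1+ replicate 1 and 82 without uninjured Gli1+ replicate 2, but 141 without uninjured stellate replicate 1. Without both that library and Gli1+ BDL replicate 2 it was 5, namely Arg1, Ctla2a, Cyp3a11 and Hpx higher and Inmt lower. On whole reads edgeR called 0 genes (lowest adjusted p 0.0545, 1872 genes at an unadjusted p under 0.05), limma-voom called 78 higher and 34 lower (66 of the 138 among them), and DESeq2 called 529 higher and 241 lower. After TMM scaling 117 of the 138 passed, and among those described below Timp1, Il1r1, Fasn, Col13a1, Krt8, Krt18, Cd93, Podxl, Btnl9, Mmp12 and Gsta3 no longer did (limma adjusted p 0.0514 to 0.0732). The direction of the 138 genes was kept in every one of these fits. As none of them overlapped in either population, leaving out libraries could not reverse it, so this is no independent check.

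**Figure D1:**
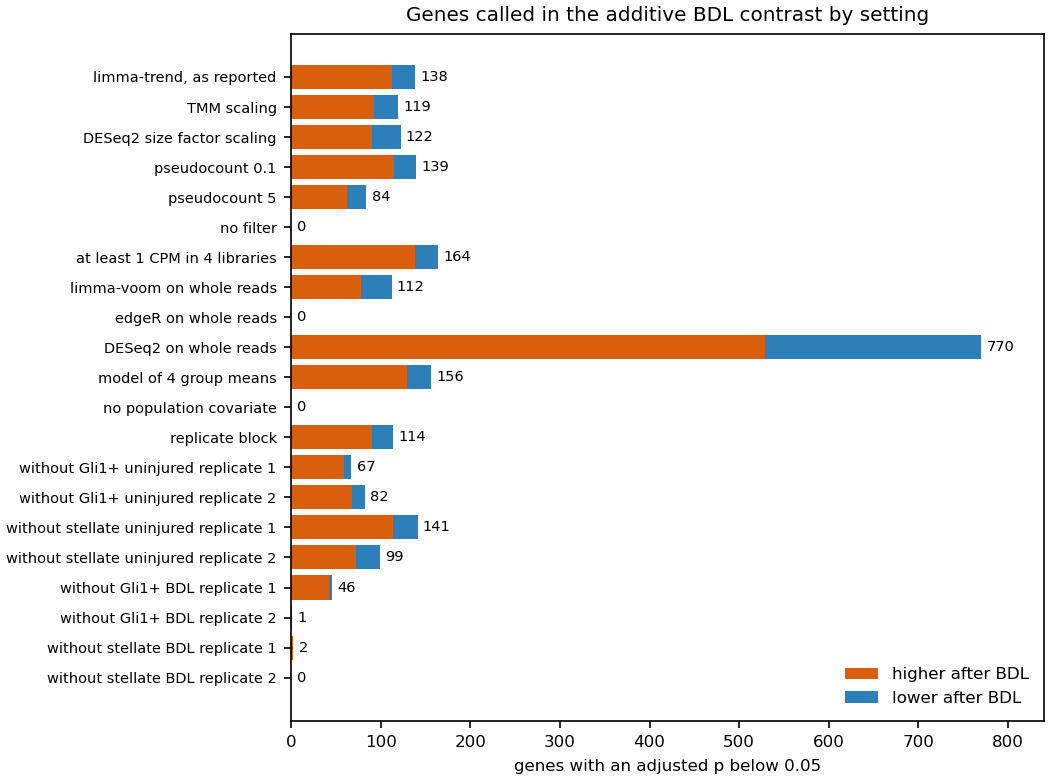
Number of genes with an adjusted p below 0.05 in the BDL contrast (x axis) under each setting (y axis), split into genes higher and lower after BDL. The limma count of 138 falls to 0, 1 or 2 when 1 of 3 BDL libraries is left out and ranges from 0 with edgeR to 770 with DESeq2.

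**Figure D2:**
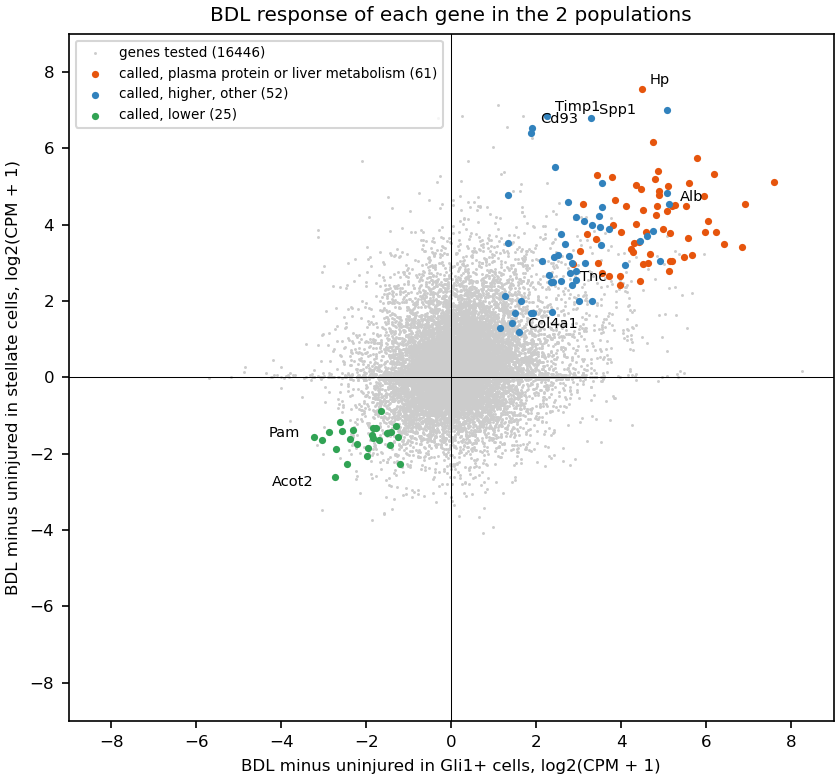
Log2 difference between BDL and uninjured libraries for each of the 16446 genes tested, in Gli1+ cells (x axis) and in stellate cells (y axis), with the 138 called genes coloured. Called genes lie in the upper right and lower left quadrants, and the 61 genes of plasma proteins or liver metabolism rose by 2.92 to 6.36 in the additive contrast.

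The called higher genes were grouped by where their transcripts are best known, after their values had been seen. Of the 113, 61 encode plasma proteins or enzymes of liver metabolism, 8 are known from endothelium, 4 from bile duct or other epithelium and 2 from macrophages. The other 38 were left outside these groups. That group is mixed, since it holds the acute phase glycoprotein Lrg1 and Hhex, a factor of liver and endothelium, and 15 of the 38 were highest in Gli1+ BDL replicate 2. The groups are not complete, and more of the 38 may be known from liver or endothelium. The 38 are therefore not a set of mesenchymal genes. Genes of matrix, cell adhesion and signalling stood in the last group and are described first. The median difference was 2.82 for all 38 genes of that mixed group against 4.44 for the 61. It was 2.97 for the 38 with the 3 genes unread in uninjured libraries set at the bound that 3 reads over the group allow. For the 61 it was 4.53 with 4 such genes at their bound.

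Tnc encodes tenascin-C, a matricellular protein of wounds (chromosome 4, 63959785 to 64047015 in mm10, minus strand). It was read at 19.5 and 19.5 CPM in uninjured Gli1+ cells and at 151 and 141 CPM after BDL, and at 11.3 and 16.8 CPM in uninjured stellate cells and 36.8 and 164 CPM after BDL. The BDL libraries were above the uninjured ones in both populations, and the stellate BDL libraries differed most from each other. Its difference was 2.63 ± 0.43 (SE), or 6.19-fold, with a limma adjusted p of 0.0222.

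The basement membrane genes Col4a1 and Col4a2, which encode the chains of the main collagen IV trimer, rose together. Col4a1 (chromosome 8, 11198423 to 11312826, minus strand) was at 312 and 259 CPM in uninjured and 805 and 915 CPM in ligated Gli1+ cells, and at 663 and 744 CPM in uninjured and 1343 and 1888 CPM in ligated stellate cells. Col4a2 (chromosome 8, 11312805 to 11449287, plus strand) was at 117 and 145 CPM, then 328 and 373 CPM, in Gli1+ cells and at 289 and 248 CPM, then 569 and 911 CPM, in stellate cells. Both genes were higher after BDL in every library, starting from a higher level in stellate cells. The differences were 1.39 ± 0.23 and 1.42 ± 0.23, with limma adjusted p of 0.0230 and 0.0211. Col4a2 stood at 1.42 in Gli1+ and 1.43 in stellate cells alone. Of 20 basement membrane genes tested, these 2 passed. Higher without overlap in both populations were 5 (25%) and lower was 1, Lamb2 (5%), against 9.39% and 3.35% of all genes. The others without overlap were Sparc, Lamc1 and Agrn at 0.72, 0.74 and 0.67 (adjusted p = 0.293, 0.254 and 0.235), and 12 of the 20 were higher in both populations, or 10 after TMM scaling.

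The starts of Col4a1 and Col4a2 lie 21 bases apart on opposite strands, and the 2 annotated genes overlap at their starts. Stretches before each start with the letters CCAAT, or ATTGG on the opposite strand, are shown because the 2 genes moved together. These letters are in capitals (RefSeq, GRCm38.p6, 5′ to 3′ on the strand of each gene). The 2 stretches are separate, and each lies inside the other annotated gene.
Col4a1, chr8:11312957-11312981, minus strand: cttgcccgggATTGGcgagccaagg
Col4a2, chr8:11312763-11312787, plus strand: gaggagctccCCAATttgttggcgc
The match before Col4a1 begins 145 bases before its start and that before Col4a2 begins 32 bases before its own. A match is a description of the letters and not a shown binding site.

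Timp1 encodes the tissue inhibitor of metalloproteinases that is best known from fibrotic liver (chromosome X, 20870166 to 20874735, plus strand). It was at 69.3 and 340 CPM in uninjured and 779 and 689 CPM in ligated Gli1+ cells, and at 0.183 and 2.09 CPM in uninjured and 122 and 397 CPM in ligated stellate cells. The uninjured Gli1+ libraries were already high, and both uninjured stellate libraries were far below every other library. The difference was 4.55 ± 0.87 with a limma adjusted p of 0.0413, made up of 2.24 in Gli1+ and 6.86 in stellate cells. It was the only one of the 22 tested members of the list of metalloproteinases and inhibitors to pass, and the called metalloproteinase Mmp12, which is not on that list, is described with the macrophage genes. Adam8, a membrane protease, and Adamts15, which cuts proteoglycans, were also higher without overlap, by 2.60 and 2.66 (adjusted p = 0.0774 and 0.0739), and Adamts5 was lower without overlap, by -1.14 (adjusted p = 0.140). The 250 bases before the start of Timp1 are shown because its level in stellate cells moved furthest among the called matrix genes, with the single ATTGG in capitals (RefSeq, GRCm38.p6).
Timp1, chrX:20869916-20870165, plus strand: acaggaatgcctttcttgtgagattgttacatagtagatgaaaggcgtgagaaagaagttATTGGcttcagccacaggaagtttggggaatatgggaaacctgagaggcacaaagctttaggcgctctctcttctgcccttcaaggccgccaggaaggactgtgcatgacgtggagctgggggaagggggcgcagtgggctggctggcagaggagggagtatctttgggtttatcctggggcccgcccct

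**Figure D3:**
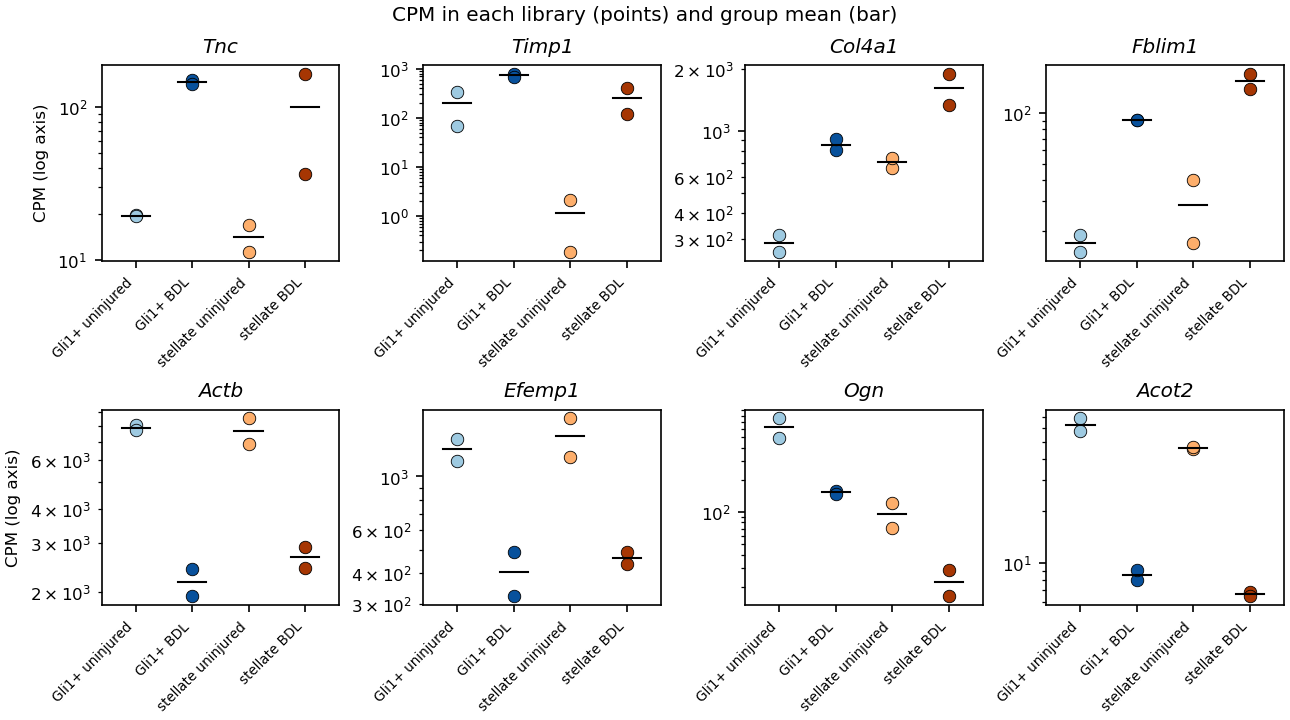
CPM in each library (points, log axis) with the group mean (bar) for 4 genes that rose and 4 that fell after BDL, in the 4 groups. In all 8 panels the BDL points lie beyond the uninjured points of the same population, and in Timp1 the uninjured groups lie far apart.

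The fibrillar collagens did not pass. Col1a1, a chain of collagen I, was at 2821 and 2166 CPM in uninjured and 4945 and 5051 CPM in ligated Gli1+ cells, and at 187 and 345 CPM in uninjured and 989 and 1835 CPM in ligated stellate cells. The groups did not overlap in either population, and the difference was 1.71 ± 0.36 with a limma adjusted p of 0.0607. Col1a2 and Col3a1 differed by 1.05 ± 0.28 and 0.91 ± 0.36 (adjusted p = 0.114 and 0.292), also without overlap. Among 30 genes of fibrillar collagens and their crosslinking none was called by limma. Of these 30, 15 had an unadjusted p under 0.05, against 2366 of all 16446 genes. DESeq2 called 4 of the 30 higher and 3 lower, against 529 and 241 of all genes, with an adjusted p of 0.00519 for Col1a1. Of the 30, 7 were higher without overlap (Col1a1, Col1a2, Col3a1, Col5a2, Col12a1, Lox and Plod2) and 4 were lower without overlap. These are 23.3% and 13.3%, against 9.39% and 3.35% of all genes. The 4 were Pcolce2, an enhancer of procollagen cleavage, Serpinh1, the collagen chaperone, P4ha1, a prolyl hydroxylase, and Loxl1, a crosslinking enzyme. Serpinh1 was at 689 and 737 CPM in uninjured Gli1+ cells against 243 and 293 CPM after BDL, and at 575 and 1593 CPM in uninjured stellate cells against 373 and 352 CPM. Its difference of -1.41 ± 0.30 missed the threshold (adjusted p = 0.0626). After TMM scaling 12 members of the list were higher and 9 lower in both populations, against 15 and 8 in CPM.

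Matricellular and proteoglycan genes went in both directions. Of 25 tested, Tnc and Spp1 rose and Ogn fell by the test. Without overlap in both populations 9 were higher (36%) and 3 lower (12%), against 9.39% and 3.35% of all genes. The proteoglycan Vcan and the secreted Cthrc1 were higher by 3.16 and 3.38 without overlap (adjusted p = 0.0626 and 0.0704), and Fn1, the gene of fibronectin, by 1.12 (adjusted p = 0.147). Col13a1, a membrane collagen outside these lists, rose from at most 0.355 to 5.72 and 15.2 CPM in Gli1+ cells and from 4.28 and 0.104 to 54.8 and 29.1 CPM in stellate cells, with an adjusted p of 0.0441.

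Fblim1, Elk3, Il1r1 and Ckap4 rose in both populations, while none of 23 integrins and other adhesion genes tested as a list was called. Fblim1, which links filamin to integrin adhesions, was at 19.0 and 15.01 CPM in uninjured Gli1+ cells and 90.5 and 90.5 CPM after BDL, and at 17.0 and 39.8 CPM in uninjured stellate cells and 169.7 and 138 CPM after BDL. The BDL libraries of each population were close to each other and well above the uninjured ones. Its difference was 2.43 ± 0.32 (adjusted p = 0.0125), close in Gli1+ cells (2.35) and stellate cells (2.505). Elk3, an ETS transcription factor, rose by 1.79 ± 0.30 (adjusted p = 0.0229), from 19.3 to 54.6 CPM across the uninjured libraries to 114 to 181 CPM across the BDL libraries. Il1r1, the receptor of interleukin 1, was at 51.1 and 84.0 CPM in Gli1+ cells without injury and at 140.3 and 181 CPM in such stellate cells. After BDL the Gli1+ libraries held 139 and 155 CPM and the stellate libraries 398 and 387 CPM, a difference of 1.22 ± 0.24 (adjusted p = 0.0441). The called transcript Gm38070 lies inside Il1r1 on the same strand, and reads of the 2 may not be told apart. Ckap4, a membrane protein of the endoplasmic reticulum, rose by 1.69 ± 0.28 (adjusted p = 0.0222).

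Il11, a cytokine of the interleukin 6 family that is known from fibroblasts, was almost unread in uninjured liver. The 4 uninjured libraries held 0.0888, 0, 0 and 0.365 CPM, and after BDL the Gli1+ libraries held 4.59 and 4.49 CPM and the stellate libraries 11.4 and 7.65 CPM. All 4 BDL libraries were above all uninjured ones (adjusted p = 0.0344), and no fold is given because its size depends on the pseudocount. Il11 and Cxcl10 were the only 2 of the 24 tested members of the list of chemokines and cytokines to pass, in opposite directions, and the called chemokine Ccl9, which is not on that list, is described with the macrophage genes. Cxcl14, a chemokine of resident fibroblasts, was higher without overlap by 1.43 (adjusted p = 0.0768), and Csf1, the macrophage growth factor, was lower without overlap by -0.62 (adjusted p = 0.342).

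Gclm, Sqle and Fasn, genes of glutathione and lipid synthesis, rose in both populations. Gclm, the regulatory subunit of the first enzyme of glutathione synthesis, was at 43.8 and 72.4 CPM in uninjured and 209 and 210.1 CPM in ligated Gli1+ cells, and at 30.0 and 42.0 CPM in uninjured and 128 and 108 CPM in ligated stellate cells. The difference of 1.79 ± 0.26 had an adjusted p of 0.0146. Sqle, squalene epoxidase of cholesterol synthesis, was at 18.6 and 7.36 CPM, then 115 and 89.9 CPM, in Gli1+ cells and at 10.2 and 5.42 CPM, then 30.8 and 34.7 CPM, in stellate cells. Fasn, fatty acid synthase, was at 32.9 and 59.3 CPM, then 108 and 150.3 CPM, in Gli1+ cells and at 15.9 and 26.1 CPM, then 82.8 and 55.2 CPM, in stellate cells. Their differences were 2.498 ± 0.435 and 1.60 ± 0.32 with limma adjusted p of 0.0262 and 0.0499. Of 24 genes of cholesterol and fatty acid synthesis these 2 passed, 20 were higher in both populations and none was lower in both, against 37.9% and 19.5% of all genes tested, and 11 were higher without overlap. The same 20 and 0 were counted after TMM scaling. Hepatocytes also express these genes, and hepatocyte markers moved in the same libraries as described with the plasma proteins. Their part in this list was not tested.

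The 25 genes that fell did so by -1.27 to -2.68, with a median of -1.84. Acot2, a thioesterase of mitochondrial fatty acid metabolism, had the largest difference. It was at 57.6 and 68.3 CPM in uninjured and 7.98 and 9.10 CPM in ligated Gli1+ cells, and at 45.7 and 46.5 CPM in uninjured and 6.83 and 6.46 CPM in ligated stellate cells. Replicates were close in every group, and the difference was -2.68 ± 0.36 (adjusted p = 0.0127).

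Matrix and secreted genes stood among the genes that fell. Ogn, the small proteoglycan osteoglycin, was at 755 and 494 CPM in uninjured and 159 and 146 CPM in ligated Gli1+ cells, and at 70.5 and 122 CPM in uninjured and 16.3 and 28.5 CPM in ligated stellate cells. It fell by 2.02 on the log2 scale (-1.99 in Gli1+ and -2.05 in stellate cells), with an adjusted p of 0.0132. Efemp1, a fibulin of elastic tissue, was at 1429 and 1158 CPM, then 487 and 321 CPM, in Gli1+ cells and at 1205 and 1733 CPM, then 438 and 489 CPM, in stellate cells. Both BDL groups were below all uninjured libraries, with a difference of -1.67 ± 0.24 (adjusted p = 0.0138). Islr, a secreted leucine-rich repeat protein of mesenchymal cells, fell by 1.99 (adjusted p = 0.0186), and Fam180a by 1.61 (adjusted p = 0.0344). Pam, the enzyme that amidates peptide hormones, was at 1236 and 724 CPM in uninjured Gli1+ cells against 80.9 and 125 CPM after BDL, and at 3070 and 2822 CPM in uninjured stellate cells against 953 and 1053 CPM. Its difference was -2.39 ± 0.36 (adjusted p = 0.0159). The proteoglycans Prelp and Dcn were lower without overlap but did not pass, at -1.04 and -1.02 (adjusted p = 0.103 and 0.327).

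Actb, the gene of cytoplasmic beta-actin that often serves as a reference gene, was among those that fell. Uninjured libraries of Gli1+ cells held 8039 and 7711 CPM and those of stellate cells 8526 and 6878 CPM. After BDL the Gli1+ libraries held 1928 and 2412 CPM and the stellate libraries 2439 and 2908 CPM. All 4 uninjured libraries were above all BDL libraries, with a difference of -1.70 ± 0.29, or 3.24-fold lower (adjusted p = 0.0235). Its close paralog Actg1 was read at only 0.425 to 1.81 CPM, and how reads that match both genes were counted is not known here, so the level of each is uncertain. Cdc42ep3, a regulator of actin through Cdc42, fell by 1.48 (adjusted p = 0.0235), and Cavin1, a coat protein of caveolae, by 1.27 (adjusted p = 0.0455). Dpysl2, which binds tubulin and is known from axon guidance, fell by 1.91 (adjusted p = 0.0146), from 325 to 1798 CPM across the uninjured libraries to 103 to 386 CPM after BDL.

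Signalling genes that fell included Spry2, an inhibitor of receptor tyrosine kinase signals, at 401 and 471 CPM in uninjured and 51.1 and 65.6 CPM in ligated Gli1+ cells. In stellate cells Spry2 was at 279 and 426 CPM uninjured and 118 and 134 CPM after BDL, and its difference was -2.17 ± 0.32 (adjusted p = 0.0145). Adra2b, an alpha-2 adrenergic receptor, was a stellate cell gene by level, at 934 and 1673 CPM uninjured and 375 and 438 CPM after BDL. In Gli1+ cells Adra2b was at 44.9 and 30.9 CPM uninjured and 5.64 and 7.24 CPM after BDL, and the additive difference was -1.997 (adjusted p = 0.0140). The transcription factor Nfia fell by 1.98 (adjusted p = 0.0241). Alkbh5, which removes N6-methyladenosine from RNA, and Wtap, a subunit of the complex that writes this mark, fell by 1.84 and 1.71 (adjusted p = 0.0135 and 0.0203), that is, both a writer subunit and an eraser were lower. The remaining genes that fell were Zscan26, Gm2a, Marf1, Abhd2, Abhd8, Paip1, Slc39a1 and D17H6S53E, with differences of -1.29 to -2.34.

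Cxcl10 and Gbp8, both genes that interferon is known to induce, fell. Cxcl10, a chemokine for T cells, was at 37.6 and 120.0 CPM in uninjured and 10.2 and 8.80 CPM in ligated Gli1+ cells, and at 97.5 and 61.0 CPM in uninjured and 19.4 and 20.9 CPM in ligated stellate cells. Gbp8, a guanylate-binding protein, was at 36.9 and 68.5 CPM, then 11.1 and 6.23 CPM, in Gli1+ cells and at 70.8 and 54.8 CPM, then 13.8 and 10.8 CPM, in stellate cells. The differences were -2.30 ± 0.42 and -2.36 ± 0.39, with adjusted p of 0.0344 and 0.0222. The wider list of 23 interferon-stimulated genes had none called by limma and a lowest adjusted p of 0.0864. Of the 23, 13 had an unadjusted p under 0.05 (2366 of all 16446 genes) and DESeq2 called 3 lower (241 of all genes). In 20 of the 23 the level was lower in both populations and in 1 higher, against 19.5% and 37.9% of all genes tested. Lower without overlap were 11, against 3.35% of all genes. Irf7, a transcription factor of the interferon response, differed by -2.06 (adjusted p = 0.0986), Ifit3 by -1.38 (0.107) and Rtp4 by -1.01 (0.0864). The most abundant members, Ifi27 and Gbp2, were lower without overlap by -0.66 and -1.32 (0.271 and 0.262). Of 18 antigen presentation genes 14 were lower in both populations and none was higher in both. B2m, the light chain of MHC class I, stood at 4654 and 6647 CPM in uninjured and 1835 and 3165 CPM in ligated Gli1+ cells, and at 12752 and 8908 CPM in uninjured and 7731 and 8245 CPM in ligated stellate cells. None of the 18 was called by limma (6 at an unadjusted p under 0.05), DESeq2 called 3 lower, and B2m and H2-D1, a class I heavy chain, had adjusted p of 0.331 and 0.264. Macrophages also express both lists, and macrophage markers were highest in uninjured stellate replicate 1. Their part in these lists was not tested. Without that library Cxcl10 and Gbp8 differed by -2.25 and -2.30 (limma adjusted p = 0.06155 and 0.0414).

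Genes of plasma proteins and liver metabolism were the largest group among the called genes and had most of the largest differences. Hpx, the heme carrier hemopexin (chromosome 7, 105591613 to 105600137, minus strand), was at 23.6 and 9.24 CPM in uninjured and 358 and 1654 CPM in ligated Gli1+ cells, and at 12.5 and 5.32 CPM in uninjured and 222 and 451 CPM in ligated stellate cells. It rose by 5.35 ± 0.51 (adjusted p = 0.00693), the lowest adjusted p of all genes. Alb, the gene of albumin, was at 168 and 23.9 CPM, then 990.2 and 5648 CPM, in Gli1+ cells and at 62.0 and 8.13 CPM, then 651 and 450.3 CPM, in stellate cells. The 61 genes rose by 2.92 to 6.36, and 59 of them had their highest value in Gli1+ BDL replicate 2, with a median ratio of 5.18 over Gli1+ BDL replicate 1. Within this group the genes of the largest response common to both populations were Cps1 (urea cycle), Fgb and Fga (fibrinogen chains), Cyp3a11 (a cytochrome P450), Hpx, Apoh, Apoa1, Orm1, Hsd17b13, Ahsg, Pzp and Hamp (hepcidin), each without overlap in either population, and Lrg1, S1pr1 and Ccl9, described with other groups, ranked among them. Their differences lay between 4.83 for Ahsg and 6.36 for Cyp3a11. F13b, Mbl2, Orm2 and Serpind1 had no read in any uninjured library.

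Acute phase proteins made up part of this group. Hp, haptoglobin, rose in stellate cells from 1.10 and 0.469 CPM to 289 and 381 CPM and in Gli1+ cells from 16.5 and 76.5 CPM to 426 and 1577 CPM. Saa1 and Saa2, the serum amyloid A proteins, Orm1 and Orm2, the acid glycoproteins, and Lcn2, lipocalin-2, also rose, and these 6 were the only called members of 26 complement and acute phase genes. The pairs Saa1 and Saa2, Orm1 and Orm2, and Fga and Fgb are neighbours within 14286 bases, and the first 2 pairs are close paralogs whose reads may not be split with certainty. Lrg1, a leucine-rich glycoprotein of the acute phase, rose from 92.4 and 1.54 CPM to 634 and 429 CPM in Gli1+ cells and from 0.122 and 0.104 CPM to 226 and 87.9 CPM in stellate cells (adjusted p = 0.0160). Rbp4, the retinol carrier of plasma, was the only called member of 23 retinoid and lipid storage genes, and at 1151 CPM it too was highest in Gli1+ BDL replicate 2.

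The 20 hepatocyte markers were all higher in both populations, 16 of them without overlap and 10 past the threshold. Their summed level was 382 to 1438 CPM in uninjured and 4225 to 23930.5 CPM in ligated Gli1+ cells, and 136 to 351 CPM in uninjured and 2518 to 2766 CPM in ligated stellate cells. No marker was at 0 except G6pc in uninjured stellate replicate 1 and Pck1 in replicate 2. Mitochondrial genes took 3.51 and 2.21% of CPM in uninjured and 3.50 and 5.72% in ligated Gli1+ cells, and 1.40 and 0.808% in uninjured and 1.72 and 2.73% in ligated stellate cells. Gm42418, a noncoding transcript that overlaps a ribosomal RNA repeat, rose with them, from 84.0 to 753 CPM across the uninjured libraries to 1653 to 6562 CPM across the BDL libraries (adjusted p = 0.0355). Whether the plasma protein transcripts came from hepatocyte RNA in the sorts or from the sorted cells was not tested.

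**Figure D4:**
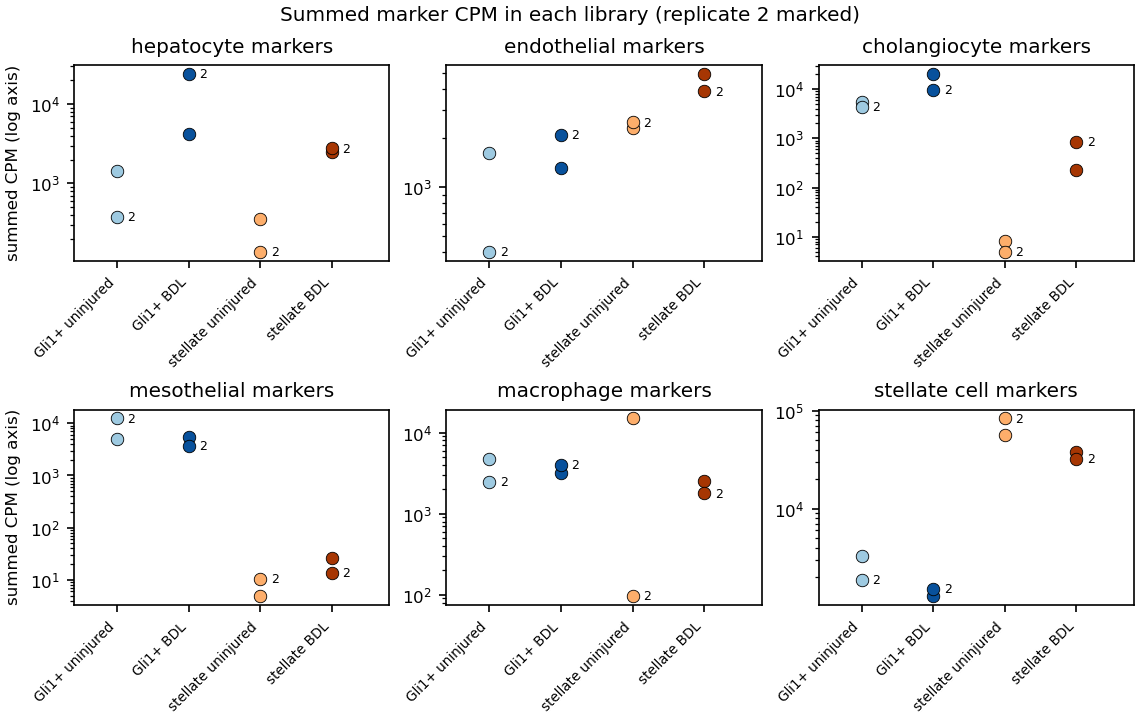
Summed CPM of the marker genes of 6 cell types in each library (points, log axes), with replicate 2 marked, in the 4 groups. Hepatocyte markers are higher after BDL in both populations and highest, at 23930.5 CPM, in Gli1+ BDL replicate 2, while macrophage markers set the uninjured stellate libraries apart.

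Endothelial genes formed the next group. S1pr1, a lipid receptor of endothelium, rose from 1.51 and 0.0571 CPM to 61.4 and 47.9 CPM in Gli1+ cells and from 0.0612 and 0.0521 CPM to 54.0 and 15.4 CPM in stellate cells, with an adjusted p of 0.0115. Lyve1, a hyaluronan receptor of sinusoids and lymphatics, rose by 3.98 (adjusted p = 0.0397) and Vwf, von Willebrand factor, by 2.97 (adjusted p = 0.0277). Cd93, Podxl, Btnl9, Bcl6b and Ecscr rose as well, and the 8 genes had a median difference of 3.91. Of 18 endothelial markers 15 were higher in both populations and 9 without overlap, against 37.9% and 9.39% of all genes. None was lower in both, and Lyve1 and Vwf passed the threshold. The summed level was 401 to 1615 CPM in uninjured and 1323 to 2099 CPM in ligated Gli1+ cells, so these overlapped, and 2315 to 2502 CPM in uninjured and 3877 to 4947 CPM in ligated stellate cells. Eng, which stellate cells also express, held much of the stellate sums, at 1533 to 2312 CPM in the 4 stellate libraries. Where these transcripts came from was not tested.

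Epithelial genes rose from very different levels. Spp1, osteopontin of bile ducts and of activated macrophages, was at 2140.2 and 259 CPM in uninjured and 10259 and 5167 CPM in ligated Gli1+ cells, and at 2.02 and 2.61 CPM in uninjured and 177 and 743 CPM in ligated stellate cells. It rose by 5.04 ± 0.80 (adjusted p = 0.0211). Krt8 and Krt18, the paired keratins of simple epithelium and neighbours on chromosome 15, rose by 2.44 and 3.05 (adjusted p = 0.0478 and 0.0465), in stellate cells from under 1 CPM to 12.3 to 50.7 CPM. Of 14 cholangiocyte markers these 3 passed, 11 were higher in both populations and none was lower in both. The summed level was 4253 and 5480 CPM in uninjured and 9442 and 20064 CPM in ligated Gli1+ cells, and 4.90 and 8.13 CPM in uninjured and 225 and 831 CPM in ligated stellate cells. In the stellate BDL libraries most of that sum was Spp1, and Epcam, a defining marker, was at 0.467 and 1.10 CPM. Mmp12 and Ccl9, known from macrophages, rose by 4.33 and 4.83 (adjusted p = 0.0416 and 0.0132), while 0 of 18 macrophage markers passed by limma, none of them at an unadjusted p under 0.05. Their part in these genes was not tested.

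The remaining called higher genes were mostly read at low levels. Ctla2a, a protease inhibitor, rose from 13.6 and 5.02 CPM to 321 and 192 CPM in Gli1+ cells and from 7.28 and 1.98 CPM to 77.8 and 63.5 CPM in stellate cells (adjusted p = 0.00883). Dbf4, which activates the kinase that starts DNA replication, rose by 3.72 (adjusted p = 0.0398), and Hhex, a transcription factor of liver and endothelium, by 2.54 (adjusted p = 0.0405). The glutathione transferases Gstm3 and Gsta3 rose by 3.998 and 2.03 (adjusted p = 0.0115 and 0.0494). The others were Wfdc21, Ttc36, Cib3, Sult1d1, Mettl7b, Marc1, Gjb2, Alox12, Tubb3, Gimap1, Scml4, Adssl1, Car14, Gm37474, Cacna1d, Olfr78 and BC025446, with differences of 2.48 to 4.15. Among all 113 higher genes 7 had no read in any uninjured library and 23 had under 4 reads in both uninjured groups, so the size of their fitted difference depends on the pseudocount.

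Lists of pathway genes were also read for direction alone, against 37.9% of all genes higher and 19.5% lower in both populations. Of all 16446 genes 9.39% were higher and 3.35% lower without overlap. An unadjusted p under 0.05 was reached by 2366, and DESeq2 called 529 higher and 241 lower. Cell cycle genes had none of 32 called by limma, with 21 at an unadjusted p under 0.05 and a lowest adjusted p of 0.0560, while DESeq2 called 6 higher. Of the 32, 27 were higher in both populations, 1 was lower in both and 17 were higher without overlap, with a median difference of 1.94. Top2a, the topoisomerase of dividing cells, was at 1.33 and 38.4 CPM in uninjured and 115 and 63.2 CPM in ligated Gli1+ cells, and at 2.20 and 0.0521 CPM in uninjured and 17.3 and 60.2 CPM in ligated stellate cells. Its uninjured replicates differed widely, and its difference of 3.68 ± 0.85 had an adjusted p of 0.0786. Cdk1, the kinase of entry into mitosis, came nearest to the threshold, at 1.99 ± 0.41. The 1 member lower in both was Ccnd2, a cyclin of the G1 phase, and the inhibitor Cdkn1a moved apart, at -0.66 in Gli1+ and 3.46 in stellate cells. The counts of 27 and 1 were the same after TMM scaling.

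Ribosomal protein genes had 21 of 25 higher in both populations and none lower in both, or 21 and 2 after TMM scaling, with 12 higher without overlap. Their differences were small, with a median of 0.69, and none was called by limma (10 at an unadjusted p under 0.05) or DESeq2. Rps3 and Rpl4, the most abundant, stood at 0.74 and 0.27 (adjusted p = 0.232 and 0.636). Genes of oxidative phosphorylation had 20 of 25 higher in both, but 16 after TMM and 12 after size factor scaling, with a median of 0.32, and its most abundant members Atp5b and Cox4i1 stood at 0.14 and 0.19. The Hedgehog pathway had 9 of 21 lower and 2 higher in both, and 10 and 2 after TMM scaling. None was called by limma and 1 was called lower by DESeq2. At an unadjusted p under 0.05 were 3 of the 21, near the share of all genes (2366 of 16446). Gas1, a Hedgehog co-receptor, was at 802 and 763 CPM in uninjured and 145 and 345 CPM in ligated Gli1+ cells, and at 86.8 and 153 CPM in uninjured and 18.1 and 56.2 CPM in ligated stellate cells. It was the only member lower without overlap, and its difference of -1.81 ± 0.39 missed the threshold (adjusted p = 0.0626). Ptch1, the Hedgehog receptor, overlapped in both populations and differed by -0.25 (adjusted p = 0.825). Gli1 differed by -0.58 (adjusted p = 0.685), with its libraries at 14.9 and 7.59 CPM against 6.61 and 2.39 CPM in Gli1+ cells.

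**Figure D5:**
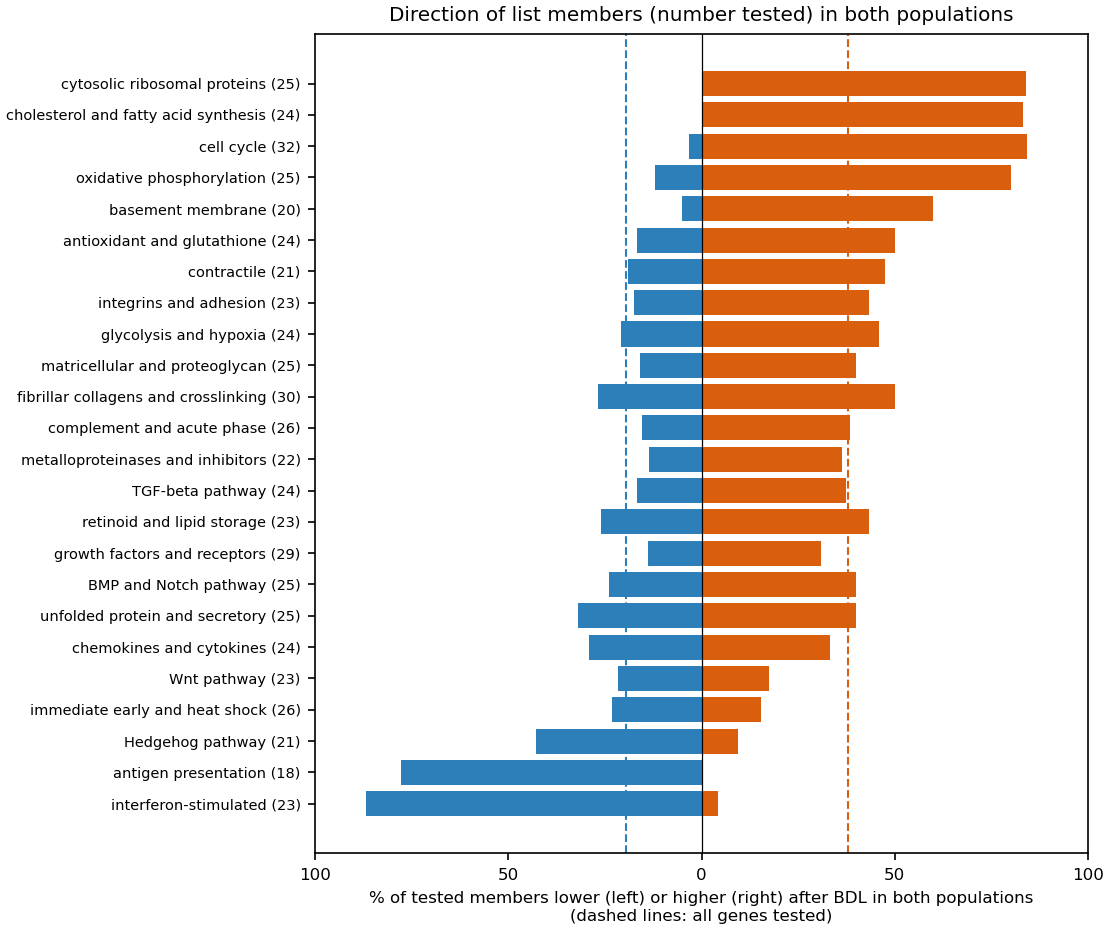
Percentage of tested members of each pathway list (y axis, number tested in brackets) that were higher (right) or lower (left) after BDL in both populations, with dashed lines for all genes tested. Ribosomal, cholesterol and cell cycle lists lie far to the right, and interferon and antigen presentation lists far to the left.

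The lists of contractile genes and of stellate cell markers had no called member in the additive contrast. Acta2, smooth muscle actin, was at 507 and 777 CPM in uninjured and 761 and 840.1 CPM in ligated Gli1+ cells, which overlapped, and at 11.1 and 16.1 CPM in uninjured and 128 and 348 CPM in ligated stellate cells. The additive difference of 2.12 ± 0.62 (adjusted p = 0.159) was made up of 3.88 in stellate and 0.35 in Gli1+ cells, and Acta2 was called within stellate cells alone (adjusted p = 0.0252). Of 21 contractile genes none was called by limma (4 at an unadjusted p under 0.05) and 2 were called higher by DESeq2. Over all 16446 genes tested 2366 had an unadjusted p under 0.05, and DESeq2 called 529 higher and 241 lower. The most abundant contractile gene without overlap in both populations was Cald1, at 0.52 (adjusted p = 0.392). Of 20 stellate cell markers 13 were lower and 7 higher in both populations (13 and 5 after TMM scaling), none called by limma (7 at an unadjusted p under 0.05) and 2 called lower by DESeq2. Colec10, Ecm1 and Vipr1 were lower without overlap, by -1.47, -1.26 and -1.20 (adjusted p = 0.0804, 0.0987 and 0.331). Lrat, Des and Pdgfrb overlapped in at least 1 population, with differences of -0.61, 0.29 and 0.68 (adjusted p = 0.536, 0.664 and 0.392). The TGF-beta list had 9 of 24 higher (37.5%) and 4 lower (16.7%) in both, close to the 37.9% and 19.5% of all genes. It had no limma call (5 members at an unadjusted p under 0.05), against 1 in each direction by DESeq2. Tgfb1 itself was higher without overlap by 1.08 (adjusted p = 0.400), and Bambi, a decoy receptor, was lower without overlap by -1.04 (adjusted p = 0.114).

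Other lists with no called member are given by their most abundant members, none of which passed (limma adjusted p between 0.115 and 0.985). The difference was 2.61 for Frzb and -0.55 for Rspo3 in the Wnt list, and 0.39 for Id3 and 0.66 for Id2 among BMP and Notch genes. It was -0.82 for Ltbp4 in the TGF-beta list, -0.55 for Hhip in the Hedgehog list, -0.02 for Igfbp7 among growth factors, and 0.59 for Itgb1 and 0.11 for Vcam1 among integrins and adhesion genes. Glycolytic Aldoa and Ldha stood at -0.49 and 0.53, the chaperones Pdia3 and Hspa5 at -0.51 and -0.17, and the early response genes Dusp1 and Junb at -0.85 and -0.14. Among these only Itgb1 and Frzb moved in the same direction without overlap in both populations.

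The populations share no library, so the direction of a response seen in 1 can be read in the other. Calls within 1 population used a spread pooled over the 4 groups, so they depend partly on the replicates of the other population. Overlap in Gli1+ cells of genes called in stellate cells is therefore not an independent look. Higher without overlap were 4122 genes (25.1%) in Gli1+ and 4513 (27.4%) in stellate cells, and the 1544 higher in both were 37.5% of the Gli1+ genes and 34.2% of the stellate genes. Lower without overlap were 2667 genes (16.2%) in Gli1+ and 2007 (12.2%) in stellate cells, and the 551 lower in both were 20.7% and 27.5% of these. Across the 16446 genes the responses had a Pearson r of 0.27 and a Spearman rho of 0.22, given as a description because genes are not independent and each response rests on 4 libraries. Within Gli1+ cells limma called 0 genes (0% of those tested, 1812 at an unadjusted p under 0.05). Within stellate cells it called 37 (0.225%), all higher, or 23 after TMM scaling. Of these 37, 26 were higher in Gli1+ cells too, where 56.1% of all genes were higher. Without overlap in Gli1+ cells were 17 higher genes, among them Timp1, Spp1, Cd93, Podxl, Vcan and Adamts15, and 6 lower genes, namely C3, Dpt, Fosl2, Gpnmb, Cavin2 and Tmem88.

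A difference between the responses was called for 2 genes (0.0122%), and neither passed in the additive contrast. Plat, tissue plasminogen activator, was at 238 and 177 CPM in uninjured and 195 and 138 CPM in ligated Gli1+ cells, but at 0.0612 and 0.104 CPM in uninjured and 85.9 and 167 CPM in ligated stellate cells. Slco2a1, a prostaglandin transporter, was at 121 and 120.4 CPM, then 122 and 171 CPM, in Gli1+ cells and at 0 and 0.156 CPM, then 142 and 107 CPM, in stellate cells. Both genes were thus abundant in the Gli1+ libraries with and without BDL and reached a like level in the stellate libraries only after BDL. For both genes the adjusted interaction p of limma was 0.0175. Summed endothelial markers also rose in the stellate libraries, from 2315 and 2502 CPM to 4947 and 3877 CPM. Which cells of the sort held the 2 transcripts was not tested.

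The 250 bases before each annotated start were found in RefSeq (GRCm38.p6) for 107 of the 138 called genes, and a gene with several starts was counted where any of them had a match. TGAGTCA, the letters that AP-1 factors are known to bind, searched on both strands, was found for 9 of 85 higher genes (10.6%), 2 of 22 lower genes (9.09%) and 5.16% of 27025 genes. CCAAT was in 42.4%, 40.9% and 37.5%, TATAAA in 23.5%, 4.55% and 14.3%, TTTGAA in 17.6%, 9.09% and 18.3%, and CACGTG in 1.18%, 0% and 6.86% of these sets, both strands searched. Shares of so few genes are a description, and a match is neither a site nor a cause. The stretches around TGAGTCA are shown for 3 of the 11 called genes that hold it, 2 that rose (Il11 and Fblim1) and 1 that fell (Cxcl10), since the same letters lay before genes of opposite response, with the match in capitals.
Il11, chr7:4778223-4778249, minus strand: ggagggagggTGAGTCAggatgtgtca
Fblim1, chr4:141606116-141606142, minus strand: ataccctctgTGAGTCAgacattccgt
Cxcl10, chr5:92348947-92348973, minus strand: ggagccttgcTGAGTCAtctccaaagt
The match began 80 bases before the start of Fblim1 and 74 before that of Cxcl10. RefSeq has 2 starts for Il11, and the match began 98 bases before the one at 4778141, which lies 4718 bases inside the gene as GENCODE draws it. Fblim1 has 2 starts as well, and the one used is 44 bases inside the GENCODE gene.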

How the data were processed

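RNA-seq of 8 libraries (4 groups of 2) was analysed from the deposited CPM, which per the file headers are normalized counts. Per the submitters' processing notes the tools were STAR 2.5.2b, featureCounts, FastQC and DESeq2 and the build mm10, with no role stated. The strand setting, annotation release and counting of multiply matching reads are not given in those notes, so paralogs and overlapping or antisense genes are uncertain. Whole reads were recovered from the deposited CPM: 100% of values were whole within 0.1 read. Of 30395 identifiers, 30233 had an entry in GENCODE vM21 for GRCm38 (mm10), the source of symbols and of 1-based coordinates.

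The additive fit of log2(CPM + 1) on population and condition used limma-trend (version 3.58.1 of limma in R 4.3.3). It kept the 16446 genes that reached 1 CPM in 2 or more libraries, leaving 5 residual degrees of freedom. A pseudocount of 1 understates changes of low genes. A model of 4 group means (4 residual degrees of freedom) gave the response of each population and their difference. Alternatives were other scalings, pseudocounts and filters, limma-voom, edgeR 4.0.16 and DESeq2 1.42.0 on whole reads, a replicate block and each library left out. PCR copies are not independent molecules, so read floors cover counting error only.

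Named genes were, per direction, the 15 called genes of largest shared response (the smaller of the population differences) with at least 20 CPM in the higher condition of each population and no overlap. Added were, per list and direction, at most 4 called members, the 2 most abundant members of lists without a call, and Col1a1, Col1a2, Col3a1, Acta2, Timp1, Tgfb1, Lrat, Des, Pdgfrb, Gli1 and Ptch1. Other genes were named after their values were seen. The comparison, its members and the 24 pathway and 11 cell type lists (734 of 740 genes found) were chosen with earlier results of these data known. In simulated data for this contrast (15317 genes) the fit recovered 45% of 4-fold and 82% of 16-fold changes, with 9 unchanged genes among 136 calls. There edgeR recovered 40% of 4-fold and 80% of 16-fold changes, with 6 unchanged genes among 126 calls. On the whole reads of the real libraries edgeR called 0 genes, so its count of 126 did not carry over to them. The recovered shares are those of the simulated data only. Whether those of limma or edgeR hold for the real libraries was not tested.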

Additional observations from a re-analysis of the deposited data

Results flagged for a closer look

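Of all genes tested, 37.9% were higher and 19.5% were lower in both populations, so genes that did not move the same way were common. A few named genes of opposite direction are given here, with the 2 genes that differed in response by the interaction test of limma. The difference is the response of Gli1+ cells minus that of stellate cells. For Plat it was -7.12 and for Slco2a1 -6.59, with an adjusted p of 0.0175 for each. Igfbp6, Vim and Junb were lower in both ligated Gli1+ libraries and higher in both ligated stellate libraries, without overlap in either population. Igfbp6, which binds insulin-like growth factors, differed by -2.74 (-1.92 in Gli1+ and 0.82 in stellate cells), but was read at no more than 3.57 CPM in stellate cells. Vim, the gene of vimentin, differed by -1.91 (-0.30 and 1.61), and Junb, an AP-1 subunit, by -1.85 (-1.07 and 0.78). None of these 3 differences passed the interaction test (adjusted p = 0.341, 0.434 and 0.569).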

How the results depend on the processing

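The 138 called genes kept their direction under every setting run, which their lack of overlap in both populations largely fixed in advance. Their number did not hold. TMM scaling gave 119 calls (117 of them among the 138), size factor scaling 122 (115), a pseudocount of 0.1 139 (111), at least 1 CPM in 4 libraries 164 (138), limma-voom 112 (66) and the model of 4 group means 156 (116). A pseudocount of 5 gave 84 (82 among the 138), of which 62 higher, all of these without overlap. No gene (0 in either direction, with or without overlap) was called by limma without a filter, by limma without the population covariate or by edgeR, where 2755, 1333 and 1872 genes had an unadjusted p under 0.05. DESeq2 called 770 (529 higher and 241 lower, 458 and 208 of them without overlap), among them 136 of the 138. Leaving out 1 library gave 0 to 141 calls, 0 to 114 higher and 0 to 27 lower, all without overlap. A fit of 6 libraries, without uninjured stellate replicate 1 and Gli1+ BDL replicate 2 and chosen after seeing the data, gave 5 (4 higher and 1 lower). Within Gli1+ cells 0 and within stellate cells 37 genes were called, the latter 23 after TMM scaling. The cause of these changes was not tested. With a replicate block 114 genes were called, 90 higher and 24 lower. Between groups, the deviations of replicate 1 from the group means correlated across genes at -0.112 to 0.112. Such values cannot show whether libraries of the same replicate number shared animals or a batch, which the labels do not state. Among named genes only values that were not called reversed. Eng stood at -0.042 with TMM, -0.082 with size factors, -0.084 with limma-voom, -0.12 with edgeR and -0.16 with DESeq2, and Vcam1 at -0.012 with size factors, -0.0022 with limma-voom, -0.32 with edgeR and -0.35 with DESeq2. With 1 library left out in turn, differences ranged from -0.27 to 0.25 for Eng, -0.46 to 0.74 for Vcam1, -0.13 to 0.13 for Igfbp7, -0.56 to 0.28 for Junb, -0.16 to 2.14 for Cdkn1a, -0.011 to 0.35 for Cox4i1, -0.47 to 0.15 for Hspa5 and -0.50 to 0.098 for Ptch1. With 6 libraries Eng was -0.17 and Des -0.027. Depth limited low genes, since 3 reads were 0.156 to 0.266 CPM.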
